A study of Mus musculus with 9 samples.

Results

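The genes described here are the core of the MHC class I antigen presentation pathway: the heavy chains H2-K1 and H2-D1, the light chain B2m, the peptide transporter subunits Tap1 and Tap2, the loading factor Tapbp, the immunoproteasome subunits Psmb8 and Psmb9, the transcriptional activator Nlrc5 and the peptide-trimming enzyme Erap1. They were taken by symbol, and all 10 were found among the 24421 rows of the deposited table of read counts per gene. The table holds 9 RNA-seq libraries from brains of C57BL/6 mice in 3 groups of 3. SB28 is a mouse glioma line that carries GFP and luciferase; tumors were grown in the brains of mice implanted at 6 to 8 weeks of age. Per the methods, GFP-positive cells without CD45 and CD11b were sorted from them. The control group received vehicle and was taken at day 21. The BAL101553 group received BAL101553, an orally given prodrug that acts on microtubules, and was taken at day 33 or day 35, as both days are stated, so treatment and time of growth cannot be told apart. The third group carries the label astrocytes and the treatment label BAL101553, and is termed astrocyte-labelled here because the study's text does not describe it. The labels of the control and BAL101553 libraries call the material whole tissue, and the table holds more libraries per group than the study's text describes.

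Class I molecules carry short peptides from inside the cell to its surface, where cytotoxic T cells read them. The proteasome cuts proteins to peptides, TAP carries these into the endoplasmic reticulum, ERAP1 trims them, and tapasin (Tapbp) holds the empty heavy chain and beta-2-microglobulin at the transporter until a peptide is bound. Interferon-gamma is the classic inducer of the pathway: it replaces catalytic subunits of the proteasome with immunoproteasome subunits and raises NLRC5, which binds the promoters of class I genes through a set of boxes it shares with the class II activator. Normal brain cells have little class I, and gliomas vary in how much they keep.

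Total counts lay between 22919523 and 34013875 per library, and levels are given as CPM, a gene's counts per 1000000 counts of its library, scaled by edgeR's TMM method over the 9 libraries. Libraries of each group differed by more than sampling noise (chi-square per gene 14.3 to 64.9), and nothing in the labels says whether they came from separate mice, so p-values measure only the spread between these libraries. The 6 control and BAL101553 libraries were nearly free of immune markers. The 9 microglia and macrophage markers summed to 2.90–4.60 CPM in control and 2.09–3.0 CPM in BAL101553 libraries, the 4 class II markers to at most 0.626 CPM, and the 8 T and NK cell markers to at most 0.167 CPM. Cd8a, Ncr1 and Ifng were at 0 in all 6. The astrocyte-labelled libraries held all 7 astrocyte markers (11960–14811 CPM in sum), but also all 6 oligodendrocyte markers (10495–13036 CPM), all 9 microglia and macrophage markers (449–970 CPM) and all 4 class II markers (42.5–251 CPM), so markers of other brain cells were present beside the labelled type. SB28 cells also had 2 genes of these lists at high levels, the astrocyte marker Gja1 (641–920 CPM) and the endothelial marker Cdh5 (485–815 CPM). In such bulk libraries, fewer cells of a type and less RNA per cell cannot be told apart.

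Of the 10 genes, 7 lie on chromosome 17 (GRCm38). H2-K1 spans chr17:33996017-34000347 on the minus strand and H2-D1 chr17:35262730-35267499 on the plus strand. Between them lie Psmb9 (chr17:34181987-34187764, minus), Tap1 (chr17:34187553-34197225, plus), Psmb8 (chr17:34197721-34201454, plus) and Tap2 (chr17:34203527-34216321, plus). Psmb9 and Tap1 overlap at their starts on opposite strands. B2m lies at chr2:122147686-122153083, outside this cluster.

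The upstream sequences of the heavy chains H2-K1, H2-D1 and their relative H2-Q4 are shown beside their values, which are given below. Whether these sequences bear on the values was not tested. RefSeq promoter windows (GRCm38.p6) were matched for 8 of the 10 genes, all but Tap2 and Nlrc5. The 200 bases before each start were searched on both strands, with no mismatch allowed, for 5 motifs. These were the interferon-regulatory-factor element AANNGAAA (in 17% of 32851 windows of this length), the kappa B element GGGATTCCC (0.213%), the gamma-activated element TTCNNNGAA (5.49%), the X box core TGACG (15.7%) and the Y box CCAAT (29.3%). The H2-K1 window at chr17:34000348-34000547, minus strand, held the first 2 of these and then the X and Y boxes, from left to right the kappa B element, the interferon element, the X box and the Y box in capitals:
H2-K1: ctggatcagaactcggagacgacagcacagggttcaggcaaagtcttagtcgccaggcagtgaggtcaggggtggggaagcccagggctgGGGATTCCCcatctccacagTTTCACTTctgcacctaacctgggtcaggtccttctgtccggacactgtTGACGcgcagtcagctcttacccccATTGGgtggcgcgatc
The B2m window at chr2:122147487-122147686, plus strand, held the interferon element, the X box and the Y box, and no match to the kappa B motif:
B2m: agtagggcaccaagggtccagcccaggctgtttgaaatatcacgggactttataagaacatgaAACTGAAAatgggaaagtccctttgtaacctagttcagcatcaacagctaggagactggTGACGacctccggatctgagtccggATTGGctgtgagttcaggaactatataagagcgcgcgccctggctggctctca

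The 30 bases that end with the interferon element can be set side by side for the 3 heavy chains, with motif matches in capitals:
H2-K1: tgGGGATTCCCcatctccacagTTTCACTT
H2-D1: tgGGGATTCCCcatctcctcagTTTCACTT
H2-Q4: tggggatttcccatctccccagTTTCACTT
They lie at chr17:34000430-34000459 (minus), chr17:35262922-35262951 (plus) and chr17:35379442-35379471 (plus). H2-D1 was identical to H2-K1 at 29 of the 30 positions and H2-Q4 at 28, and the H2-Q4 stretch does not contain the exact kappa B motif. Variants of that motif were not searched, so a variant kappa B element in H2-Q4 or B2m would have been missed. The H2-D1 stretch is upstream of the RefSeq start but inside a longer GENCODE transcript. All 3 windows also held a match to the X box core and to the Y box, but the X box match of H2-Q4 is at another position. In H2-K1 and H2-D1 the core TGACG follows the bases ggacactgt and ggacactga, before every Y box match. After ggacactga the H2-Q4 window reads TGACT, which is not an exact match, and variants of the core were not searched. The TGACG of H2-Q4 lay at -73 to -69 from the start, between Y box matches at -79 to -75 and -55 to -51. Of the other members, Tap1 held the X box core, Psmb9 the X box core and the Y box, Tapbp the Y box and Psmb8 the gamma-activated element, and Erap1 held none of the 5. The Tap1 and Psmb9 windows overlap on opposite strands, and their X box core is the same stretch of bases, matched from both genes. These are matches of letters and not mapped binding sites.

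Because these heavy chains are so similar, 50-base stretches, the study's read length, were compared between transcripts. Of 1570 such stretches of H2-K1, 138 (8.79%) also occur in a transcript of another gene, and 109 of them occur in H2-D1. Of 2053 stretches of H2-D1, 294 (14.3%) are shared with another gene. For H2-Q4 the share was 39.2%, and of these 684 stretches 280 occur in Gm11131, a gene on the opposite strand, and 134 in the heavy chain H2-Q6. Of all H2-Q4 stretches, 3.84% occur in H2-D1 and 3.04% in H2-K1. For B2m and Nlrc5 the share with any other gene was 0. H2-Q6, H2-Q7, H2-Q8 and H2-Q9 are listed at 0 in all 9 libraries, and how reads that map to several genes were counted is not given in the sources used here. Values of the heavy chains are uncertain to that extent.

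Per kilobase of exon, B2m was the most abundant member in all 3 groups. In the control libraries B2m had a mean of 2500 ± 268 CPM per kb (SD, n = 3), H2-K1 202 ± 36.1, H2-D1 118 ± 22 and Tapbp 57.7 ± 5.76, and the ranges of these neighbours in the order did not overlap. Psmb8 (18.6 ± 9.12), Erap1 (13.0 ± 0.645), Tap1 (10.6 ± 4.28), Tap2 (6.29 ± 1.86), Nlrc5 (4.14 ± 0.736) and Psmb9 (2.19 ± 1.28 CPM per kb) followed, and each of these overlapped its neighbour. In the BAL101553 libraries the order from B2m down to Psmb8 was the same, with H2-K1 at 301 ± 60.6 and Psmb8 at 32.7 ± 8.66 CPM per kb, and Tap1 and Tap2, and Tap2 and Erap1, overlapped.

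**Figure D1:**
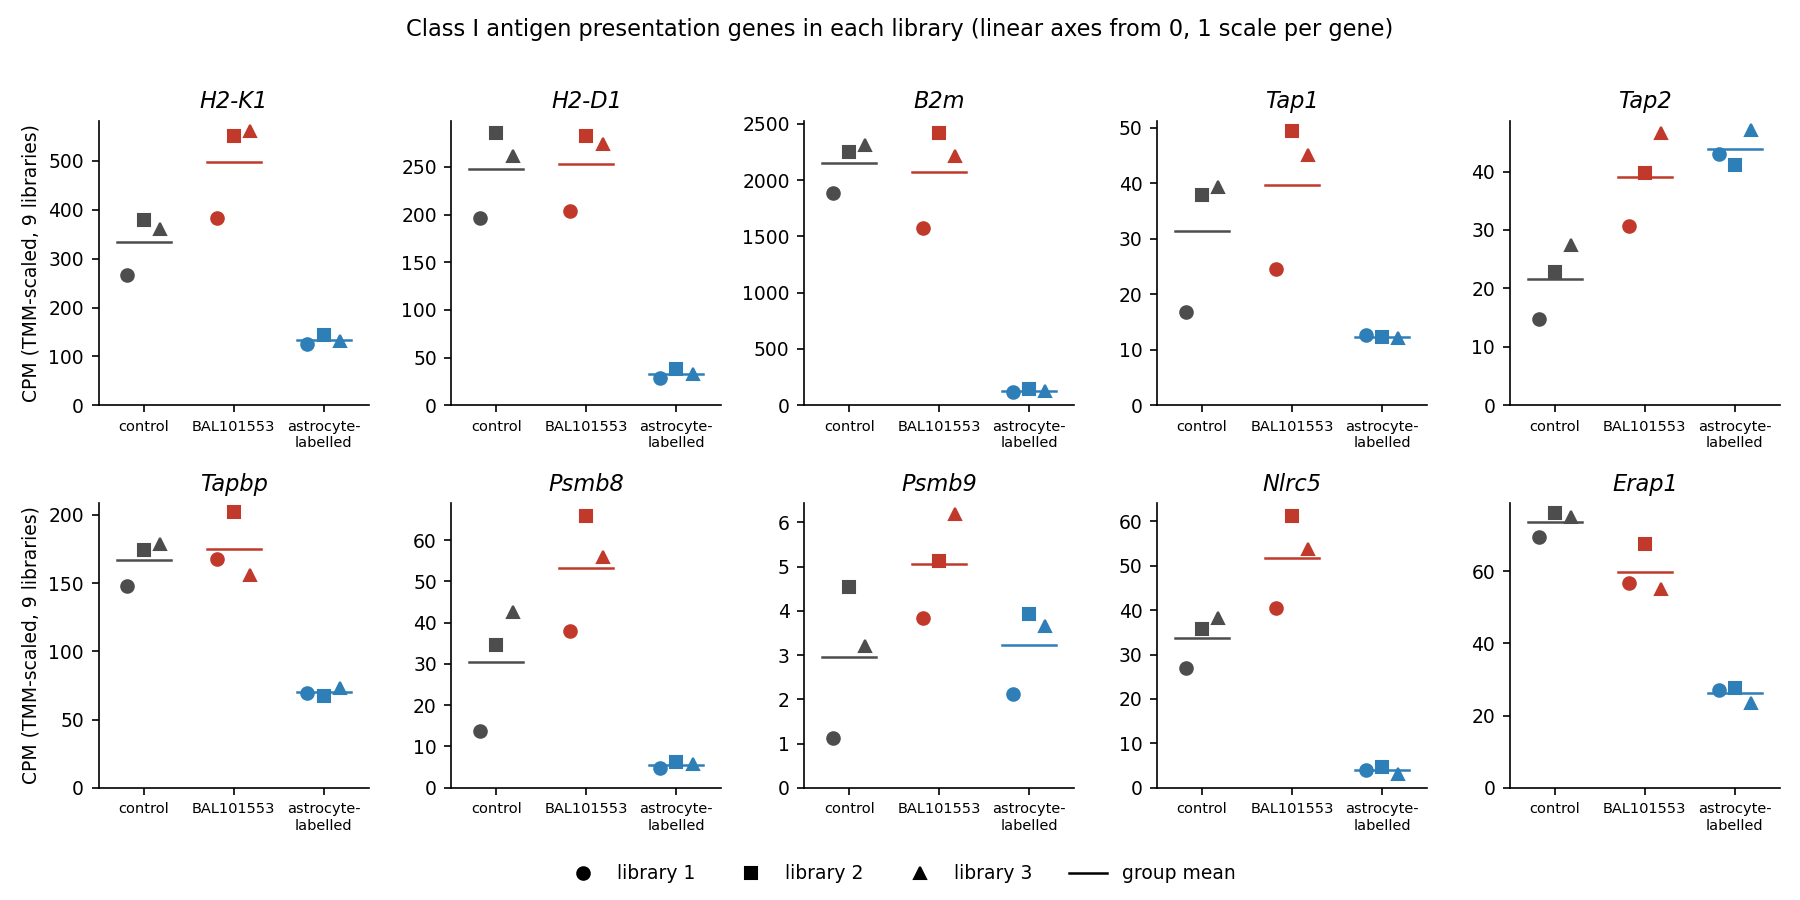
CPM (vertical axis, linear from 0, a scale of its own for each gene) of the 10 genes in the 9 libraries; symbols mark libraries 1 to 3 of each group and the line is the group mean. Control 1 is the lowest control library for all 10 genes, the astrocyte-labelled libraries lie far below the others for B2m, H2-D1, Psmb8 and Nlrc5, and for Tap2 they overlap the BAL101553 libraries.

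The comparison of BAL101553 with control asks how the sorted tumor cells of treated and vehicle mice differed. Tap2, the second subunit of the peptide transporter, was higher in the BAL101553 libraries and was the only member that passed the test. H2-K1 and Nlrc5 also had each BAL101553 library above all control libraries, at 1.5-fold and 1.55-fold, and Erap1 had each below them, but these did not pass. H2-D1, B2m and Tapbp had nearly the same mean in both groups. The test was edgeR's quasi-likelihood test on the counts, two-sided, with p-values adjusted by Benjamini-Hochberg over all 12633 genes and called under 0.05. By this test 1 of 10 members was called, whereas 14.7% of all genes tested were called and 8.64% were called higher. Of the members, 4 had an unadjusted p under 0.05 in this test, namely H2-K1, Tap2 and Nlrc5, which were higher, and Erap1, which was lower. In 8 members the log2 fold change was above 0. The shares of all genes tested that meet either mark were not counted, so these counts cannot be set against them. The median log2 fold change of the members was 0.46, against 0.02 over all genes tested.

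The heavy chains present the peptide. H2-K1 stood at 267, 378 and 360 CPM in control 1, 2 and 3 and at 382, 551 and 561 CPM in BAL101553 1, 2 and 3. The groups did not overlap, though BAL101553 1 was only just above control 2. The log2 fold change was 0.58 (SE 0.18, 1.5-fold), with an adjusted p of 0.0700 from edgeR. H2-D1 stood at 196, 286 and 261 CPM in control and 204, 282 and 274 CPM in BAL101553 libraries, and the groups overlapped almost fully (log2 fold change 0.04, SE 0.17, adjusted p = 0.885 from edgeR). With H2-K1 and H2-D1 summed, so that a read given to either is kept, the log2 fold change was 0.37 (SE 0.18) and the adjusted p from edgeR 0.186. Over all 22 rows of class I heavy chains it was 0.45 (SE 0.18, adjusted p = 0.123 from edgeR).

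The ratio of H2-K1 to H2-D1 counts within a library needs no scaling between libraries, and was chosen after its values were seen. It was 1.36, 1.32 and 1.38 in control 1, 2 and 3 and 1.87, 1.95 and 2.05 in BAL101553 1, 2 and 3. The spread within a group was thus small beside the difference between groups. In an exact permutation test (two-sided) p was 0.1, the smallest that 3 against 3 libraries allow.

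B2m, the light chain shared by all class I molecules, stood at 1887, 2250 and 2314 CPM in control and at 1573, 2414 and 2217 CPM in BAL101553 libraries. The lowest and the highest of these 6 values were both BAL101553 libraries (log2 fold change -0.05, SE 0.17, adjusted p = 0.859 from edgeR). Its count for each count of H2-K1 and H2-D1 together, a ratio also chosen after its values were seen, was 4.08, 3.39 and 3.73 in control and 2.68, 2.90 and 2.66 in BAL101553 libraries. These did not overlap (exact permutation test, two-sided, p = 0.1).

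Tap1 and Tap2 form the transporter as a pair. Tap2 stood at 14.8, 22.7 and 27.4 CPM in control and 30.7, 39.8 and 46.5 CPM in BAL101553 libraries, with all BAL101553 values above all control values. Its log2 fold change was 0.86 (SE 0.24, 1.81-fold), with an adjusted p of 0.0489 from edgeR. The call depended on single libraries: the adjusted p from the same test was 0.103 without control 1, 0.0970 without control 2, 0.0774 without control 3, 0.0765 without BAL101553 2 and 0.134 without BAL101553 3, and 0.0495 without BAL101553 1. With DESeq2's size factors in place of TMM it was 0.0503. Tap1 stood at 16.7, 37.9 and 39.4 CPM in control and 24.6, 49.4 and 45.1 CPM in BAL101553 libraries. Library 1 was the lowest of each group and the groups overlapped (log2 fold change 0.35, SE 0.35, adjusted p = 0.523 from edgeR). Of 3393 stretches of 50 bases in Tap2, 427 (12.6%) are shared with other genes, most of them with Gm15821 on the opposite strand, and Tap1 shares 163 of 2904 with Psmb9. The libraries were made with a stranded kit, but whether the counting used strand is not given in the sources used here.

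Tapbp, which bridges the transporter and the heavy chain, stood at 148, 174 and 179 CPM in control and 168, 202 and 156 CPM in BAL101553 libraries (log2 fold change 0.08, SE 0.12, adjusted p = 0.695 from edgeR). Erap1, which trims peptides to the length class I can hold, stood at 69.5, 76.3 and 75.1 CPM in control and 56.8, 67.5 and 55.1 CPM in BAL101553 libraries. Every BAL101553 library was below every control library, as was the case for 19.7% of all genes tested. The log2 fold change of Erap1 was -0.29 (SE 0.11, adjusted p = 0.0966 from edgeR), and without BAL101553 2 the adjusted p was 0.0379.

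Nlrc5, the activator of class I genes, stood at 26.8, 35.7 and 38.2 CPM in control and 40.5, 61.2 and 53.7 CPM in BAL101553 libraries. The groups did not overlap, but BAL101553 1 and control 3 were close. The log2 fold change was 0.63 (SE 0.19, 1.55-fold), and the adjusted p from edgeR was 0.0563. BAL101553 1 bore on Nlrc5 and H2-K1 alike: without it the adjusted p from edgeR was 0.0378 for Nlrc5 and 0.0388 for H2-K1. In all, 3 members (H2-K1, Tap2 and Nlrc5) had no overlap between the groups in this direction, and 20.0% of all genes tested had none either.

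Psmb8 and Psmb9 encode catalytic subunits of the immunoproteasome, which take the places of Psmb5 and Psmb6. Psmb8 stood at 13.9, 34.6 and 42.6 CPM in control and 38.1, 65.9 and 56.0 CPM in BAL101553 libraries. Control 1 was far below the others and control 3 was above BAL101553 1 (log2 fold change 0.82, SE 0.38, adjusted p = 0.168 from edgeR). Psmb9 had few reads, 25, 122 and 77 in control and 114, 131 and 213 in BAL101553 libraries, and the groups overlapped (log2 fold change 0.77, SE 0.45, adjusted p = 0.260 from edgeR).

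Psmb8 counts were 13.2%, 32.1% and 36.7% of Psmb5 counts in control 1, 2 and 3 and 44.1%, 71.1% and 66.3% in BAL101553 1, 2 and 3. Psmb9 counts were 0.727%, 2.89% and 1.90% of Psmb6 counts in control and 3.15%, 4.76% and 4.99% in BAL101553 libraries. In both ratios every BAL101553 library lay above every control library. The mean difference in log2 ratio, on log2(CPM + 2), was 1.18 for Psmb8 to Psmb5 and 1.0 for Psmb9 to Psmb6, each with p = 0.1 in the exact permutation test (two-sided). Without control 1 these differences were 0.76 and 0.72. On log2 of raw counts with 0.5 added, the Psmb9 to Psmb6 difference was 1.40, the largest of its alternatives. The size for Psmb9, a gene of few reads, thus depends on the value added. The denominators moved as well: Psmb5 (log2 fold change -0.31, adjusted p = 0.0459 from edgeR) and Psmb6 (-0.43, adjusted p = 0.0230 from edgeR) fell. For the remaining subunit, Psmb10, counts were 12.4–15.4% of those of Psmb7 in control and 10.8–15.6% in BAL101553 libraries, with a difference of -0.08 and p = 0.7 in the exact test.

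**Figure D2:**
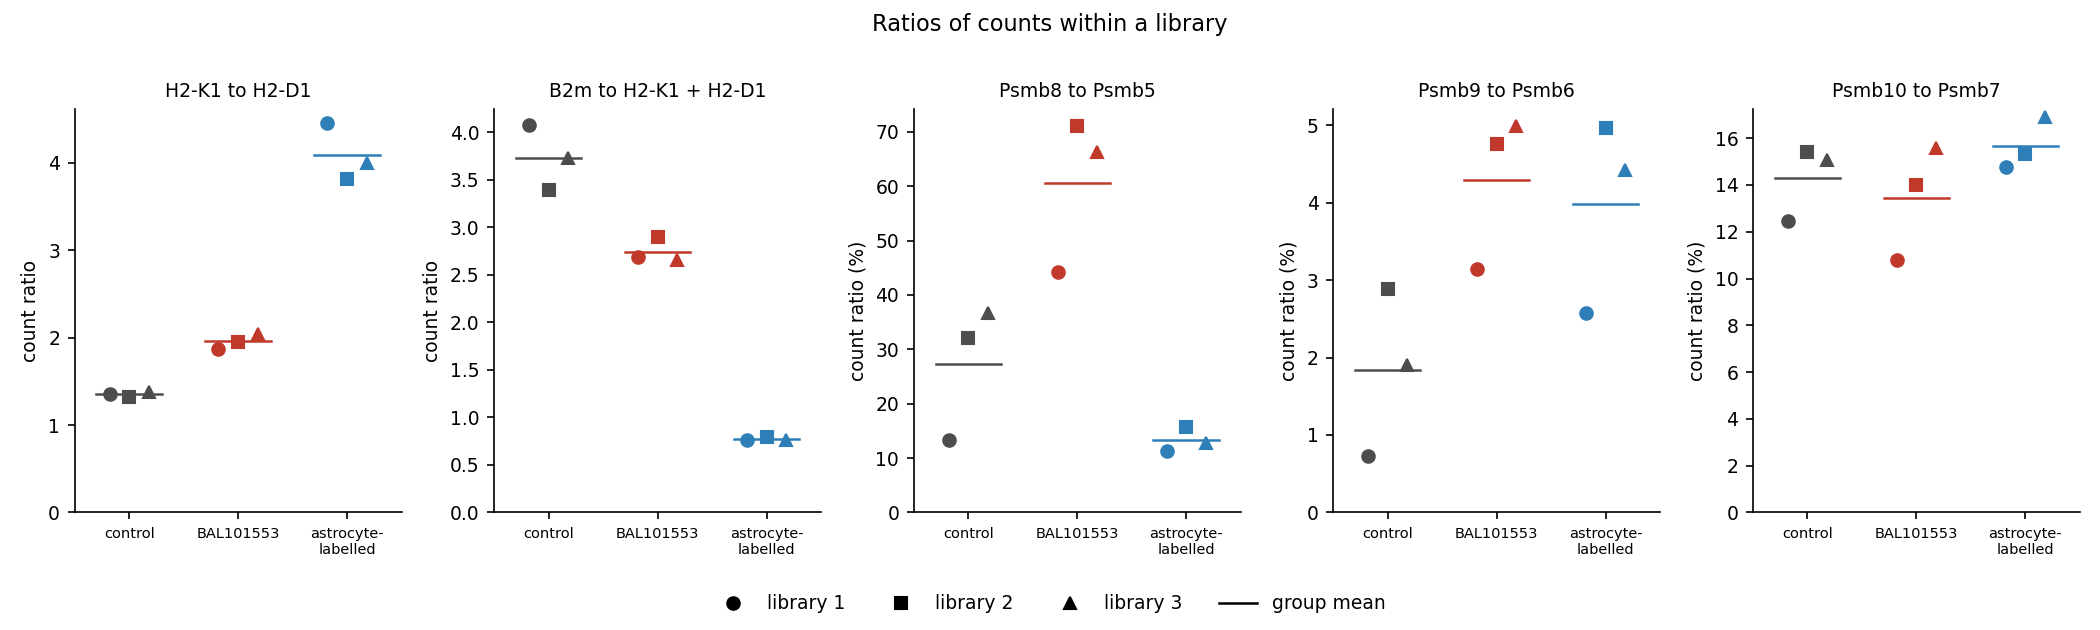
Ratio of the counts of 2 genes within each library (vertical axes from 0; the proteasome ratios in percent); symbols mark libraries 1 to 3 and the line is the group mean. The H2-K1 to H2-D1 ratio is 1.32–1.38 in control, 1.87–2.05 in BAL101553 and 3.82–4.46 in astrocyte-labelled libraries, whereas the Psmb10 to Psmb7 ratio overlaps between control and BAL101553.

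Several members shared their lowest and highest libraries. Control 1 was the lowest of the 3 control libraries for 10 of 10 members and the lowest of all 6 tumor libraries for 8, and BAL101553 1 was the lowest of its group for 8. BAL101553 2 was the highest of the 6 for 5 members. How often each library was lowest or highest over all genes tested was not counted, so the pattern is not shown to be particular to the members. The highest of the 6 libraries exceeded the lowest 5.54-fold for Psmb9, 4.76-fold for Psmb8, 3.15-fold for Tap2 and 2.95-fold for Tap1, but 1.36-fold for Tapbp and 1.39-fold for Erap1. Without control 1, the log2 fold change was 0.040 for Tap1, 0.38 for Psmb9, 0.47 for Psmb8 and 0.43 for H2-K1, and none of these passed the test.

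Of 58 further genes of the pathway listed for this work, 57 were in the table and 41 were tested between BAL101553 and control. Among them 4 were called higher and 3 lower, where 14.7% of all genes tested were called and 8.64% were called higher, so the count stands near the share over all genes. Their median log2 fold change was -0.11. The genes named next are given for their own values. H2-Q4, a class I heavy chain of the Q region, rose from 19.9, 45.6 and 44.2 CPM in control to 75.3, 115 and 85.2 CPM in BAL101553 libraries. Its log2 fold change was 1.33 (SE 0.31, adjusted p = 0.0294 from edgeR), and the call was lost without control 3 (adjusted p = 0.080), BAL101553 2 (0.0515) or BAL101553 3 (0.0675). It was the only other heavy chain called of 4 tested. H2-K1 and H2-D1 together made up 88.4–89.2% of all heavy chain CPM in control and 83.1–86.7% in BAL101553 libraries. Among 12 genes of peptide supply, Lnpep, an aminopeptidase of the endosomal route, rose (log2 fold change 0.53, adjusted p = 0.0210 from edgeR), and Psmb5 and Psmb6 fell. Among 18 regulators, Jak2 (0.34, adjusted p = 0.0330) and Ifngr1 (0.39, adjusted p = 0.0311), a kinase and a chain of the interferon-gamma receptor, rose. Among 7 loading and quality control genes, Bcap31, which aids export of class I from the endoplasmic reticulum, fell (-0.44, adjusted p = 0.0276 from edgeR).

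The astrocyte-labelled libraries share with the BAL101553 libraries the treatment label and the strain, and differ from them in the labelled cell type. The 2 comparisons share the BAL101553 libraries. Class I expression was far lower in the astrocyte-labelled libraries: 8 of 10 members were lower by edgeR's test and none was higher. The largest of the 8 adjusted p-values was 0.000211, for Tap1, and the largest differences were in B2m, Nlrc5, Psmb8 and H2-D1. Tap2 and Psmb9 did not pass. Of 15314 genes tested, 38.9% were called lower and 46.3% higher. The median log2 fold change was -1.83 for the members and 0.18 for all genes tested.

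B2m was at 116, 144 and 125 CPM in astrocyte-labelled 1, 2 and 3, a log2 fold change of -4.04 against BAL101553 (SE 0.19, adjusted p = 4.11e-07 from edgeR). Nlrc5 was at 3.94, 4.59 and 3.20 CPM (log2 fold change -3.76, SE 0.20) and Psmb8 at 4.76, 6.22 and 5.70 CPM (-3.29, SE 0.22). The 2 heavy chains differed in size of change. H2-D1 was at 28.1, 37.6 and 32.8 CPM, with a log2 fold change of -2.98 (SE 0.16). H2-K1 was at 125, 144 and 131 CPM, with a log2 fold change of -1.93 (SE 0.16). The H2-K1 to H2-D1 count ratio was accordingly 4.46, 3.82 and 4.0, above all 6 tumor libraries (exact permutation test against BAL101553, two-sided, p = 0.1).

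The remaining members differed less. Tap1 was at 12.2–12.6 CPM (log2 fold change -1.72, SE 0.24), Tapbp at 67.0–73.4 CPM (-1.36, SE 0.10) and Erap1 at 23.6–27.6 CPM (-1.22, SE 0.11), and for each the ranges did not overlap those of the tumor libraries. Psmb9 was at 2.11, 3.92 and 3.66 CPM (-0.68, SE 0.30, adjusted p = 0.0593 from edgeR), and 3 of its 15 alternatives called it lower. Tap2 was at 43.1, 41.1 and 47.1 CPM, with a log2 fold change of 0.13 (SE 0.15, adjusted p = 0.439 from edgeR). Against control, Tap2 was higher in the astrocyte-labelled libraries, by 0.97 (SE 0.20, adjusted p = 0.0014 from edgeR), 8 members were lower and Psmb9 did not pass (0.07, SE 0.45); 39.5% of 15207 genes tested were lower and 48.8% higher. Per kilobase, H2-D1 (15.6 ± 2.26 CPM per kb) and Tap2 (12.7 ± 0.887 CPM per kb, SD, n = 3) overlapped in these libraries, and Nlrc5 was last at 0.482 ± 0.0860.

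**Figure D3:**
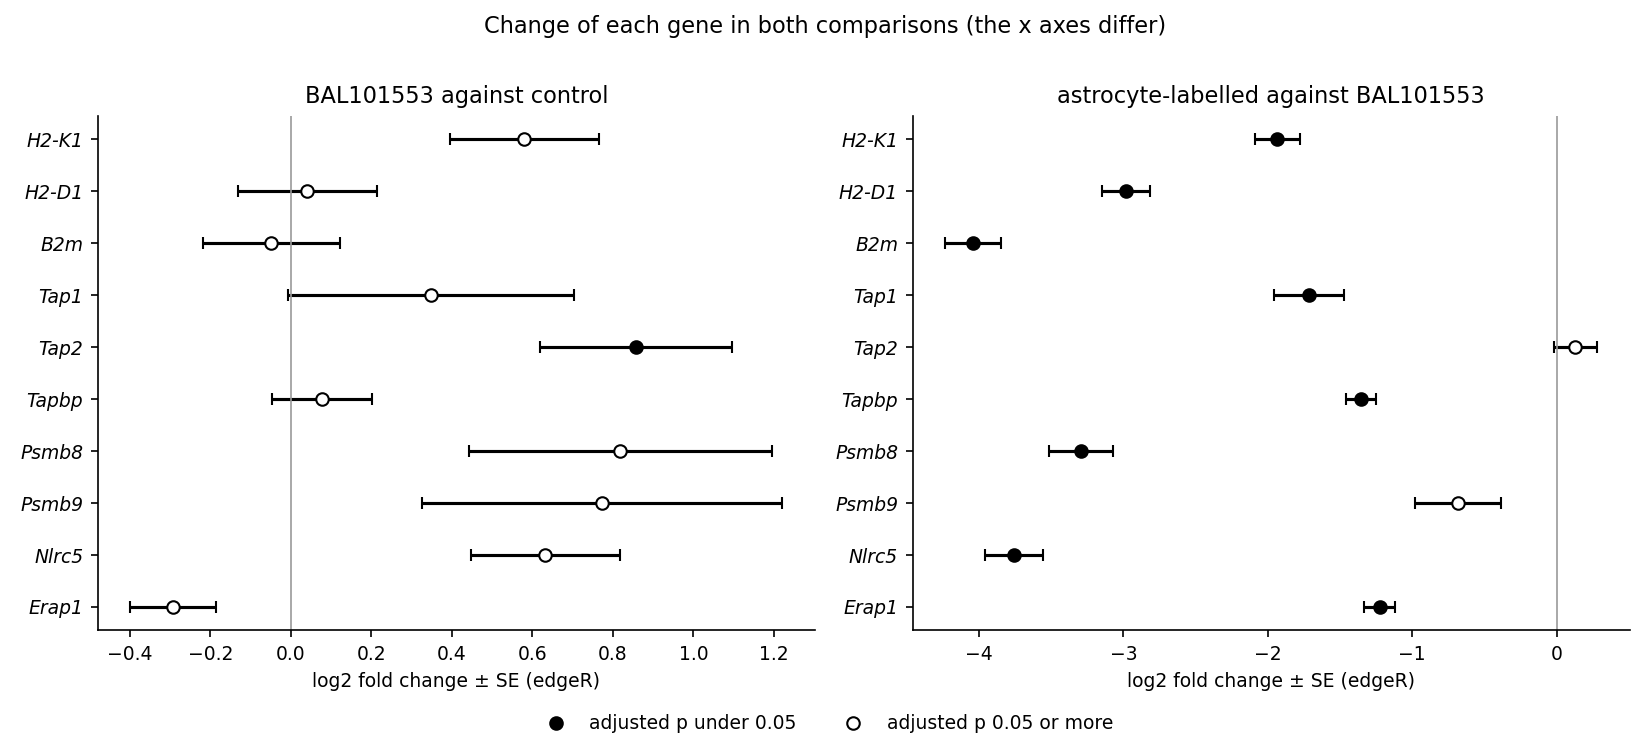
Log2 fold change (horizontal axes, which differ between the panels) with its standard error for the 10 genes, BAL101553 against control on the left and astrocyte-labelled against BAL101553 on the right; filled points have an adjusted p under 0.05 in edgeR's test. On the left only Tap2 is filled; on the right 8 genes are filled, from B2m at -4.04 to Erap1 at -1.22, and Tap2 lies near 0.

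Microglia and class II markers varied more than the members did between the astrocyte-labelled libraries. The microglia and macrophage markers summed to 449, 970 and 701 CPM and the class II markers to 42.5, 251 and 105 CPM in astrocyte-labelled 1, 2 and 3, a range of 2.16-fold and 5.91-fold. Of the members, 7 were highest in astrocyte-labelled 2 and 5 were lowest in astrocyte-labelled 1. The highest library exceeded the lowest 1.15-fold for H2-K1, 1.34-fold for H2-D1, 1.24-fold for B2m, 1.86-fold for Psmb9 and 1.03-fold for Tap1. How much of the class I RNA in these libraries came from microglia was not tested.

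**Figure D4:**
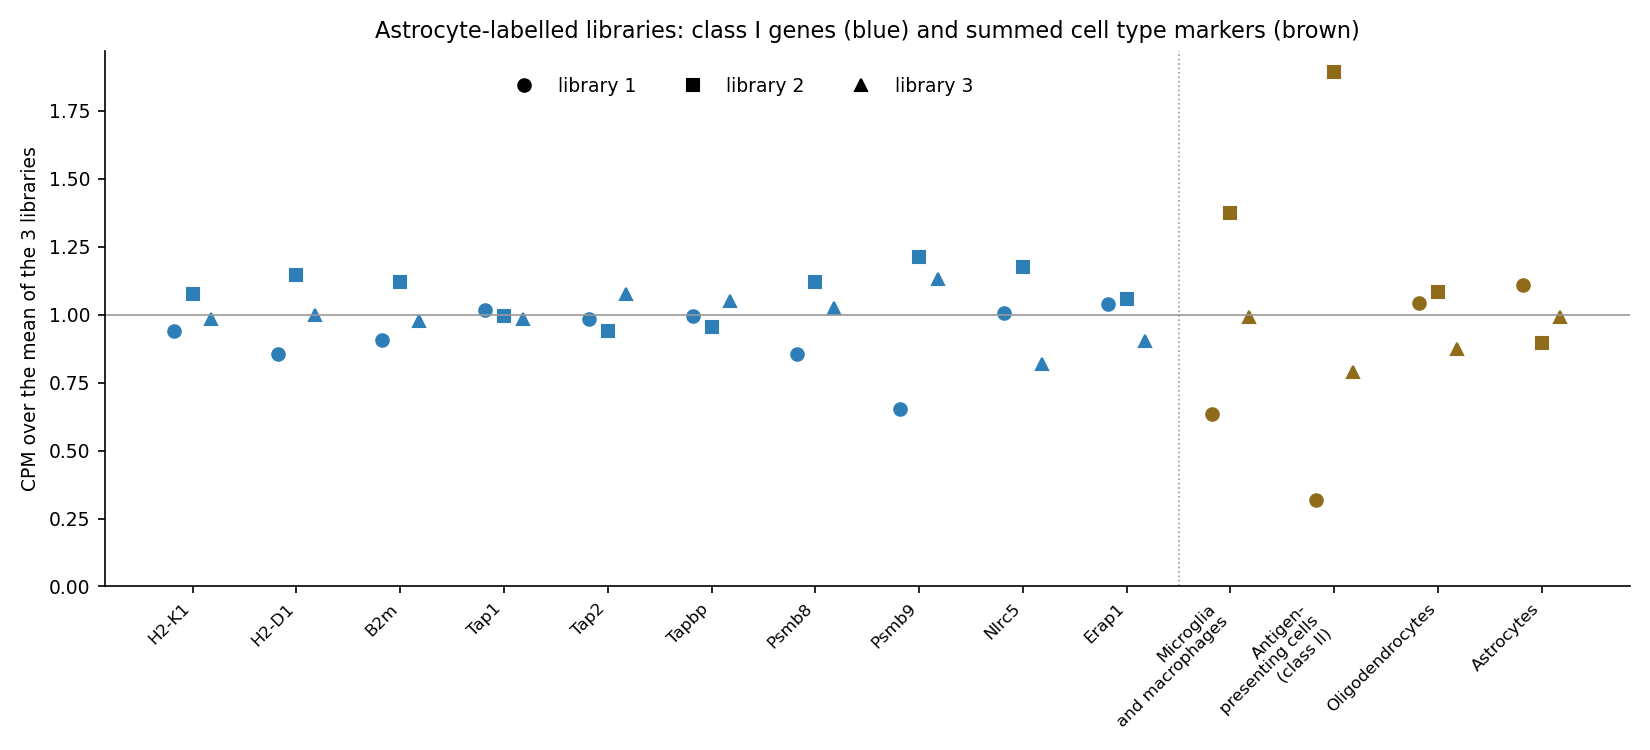
CPM in each astrocyte-labelled library over the mean of the 3 (vertical axis, from 0) for the 10 genes (blue) and for the summed markers of 4 cell types (brown). Astrocyte-labelled 2 is highest for the microglia and class II sums and for 7 of the 10 genes, and the spread of the class II sum, 5.91-fold, is wider than that of any of the genes.

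Of the further pathway genes, 43 were tested against BAL101553, and 30 were lower and 6 higher in the astrocyte-labelled libraries (38.9% and 46.3% of all genes tested), with a median log2 fold change of -0.81. The largest falls were in Ifngr2, a chain of the interferon-gamma receptor (from 129–172 CPM to 14.2–15.9 CPM), Irf1, an interferon-induced activator of class I genes (from 72.4–97.5 CPM to 16.1–17.5 CPM), and Uggt1, a glycoprotein folding sensor (from 342–391 CPM to 72.5–76.6 CPM). The largest rises were in H2-K2 (from 3, 9 and 10 reads to 267, 289 and 226 reads), in H2-T24 (from 3, 11 and 8 reads to 69, 77 and 71 reads) and in Irf8, an interferon regulatory factor of myeloid cells (from 1.15–2.67 CPM to 7.63–13.7 CPM). Irf8 was highest in astrocyte-labelled 2, as the microglia markers were. H2-K1 and H2-D1 made up 71.7–74.4% of all heavy chain CPM in these libraries.

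To place the members among other genes, the pattern over the 9 libraries was compared by the root mean square difference of log2(CPM + 2), each gene centred on its mean, among 15407 other genes. The points share libraries and their scaling, and the large step between tumor and astrocyte-labelled libraries dominates the measure. Nearest to H2-K1 were Tcof1 (0.13), Trim56, Angpt2, Fancd2 and Kif11 (0.16), and nearest to B2m were Mnda (0.12), Dlgap5, Ccnb2, Top2a and Cks2 (0.17). No member was among either gene's nearest 100 genes: the closest were Tap1 to H2-K1 (0.26, rank 124) and H2-D1 to B2m (0.55, rank 418). B2m itself ranked 10242 from H2-K1 (1.17).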

How the data were processed

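The authors made stranded libraries, mapped 50-base reads with TopHat (build mm10 per the labels) and counted them with HTSeq (0.6.1 per the labels) and featureCounts. The deposited table holds raw counts per gene, not normalized, in 9 columns that each map to 1 library (0 columns were unmapped). The labels name HTSeq alone and the study's methods name both counters; the annotation is not given in the sources used here. Counting error is small at these depths except for genes with few reads, such as Psmb9.

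Tests used edgeR 4.0.16 in R 4.3.3 (filterByExpr, TMM, quasi-likelihood test on the 2 groups compared, Benjamini-Hochberg over all genes, two-sided), which was tested on simulated data. Standard errors were taken as the size of the log2 fold change over the square root of F. Alternatives used limma 3.58.1, DESeq2 1.42.0, other scalings and filters, all 9 libraries, a replicate block and each library left out. Gene models came from GENCODE vM21 on GRCm38 and promoters from RefSeq. Lengths are the union of exons.

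Members and lists were chosen with earlier results of these data known. Besides the members, the text names pathway genes past the threshold, the 3 largest changes in each direction of the astrocyte-labelled comparison, the proteasome subunits used in ratios, heavy chains that share sequence, and the 5 genes most like H2-K1 and B2m. Protein sequences were not used here.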

Additional observations from a re-analysis of the deposited data

How the results depend on the processing

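Of the 10 members, 1 (Tap2) was called between BAL101553 and control. With DESeq2's size factors 0 were called, with total library sizes or with genes kept at 1 count in any library 2 (Nlrc5, Tap2), and with DESeq2's Wald test or all 9 libraries in one model 3 (H2-K1, Nlrc5, Tap2). Leaving out 1 library gave 0 to 3: 0 without control 1, control 2, control 3 or BAL101553 3, Erap1 alone without BAL101553 2, and H2-K1, Nlrc5 and Tap2 without BAL101553 1. Of the further pathway genes 7 were called, 11 with the Wald test or all 9 libraries, and 0 to 5 with 1 library left out. The adjusted p over all alternatives lay between 0.00516 and 0.134 for Tap2, between 0.0167 and 0.181 for H2-K1 and between 0.0136 and 0.146 for Nlrc5. With the replicate number as a block, 4 members (H2-K1, Nlrc5, Psmb8, Tap2) and 3 pathway genes were called. Samples of the same number correlated at 0.156, -0.0334 and 0.154 in their deviations from the group means. The first and last of these values were the highest over all pairs of a BAL101553 and a control library. BAL101553 2 correlated best with control 1 (0.0514), though control 1 correlated more with BAL101553 1. These values do not settle whether the numbers pair the samples, and the main test took no pairing.

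B2m turned to 0.036 with total library sizes and ranged from -0.18 to 0.11 with 1 library left out, H2-D1 from -0.11 to 0.17, Tapbp from -0.0399 to 0.16 and the Psmb10 to Psmb7 ratio from -0.19 to 0.062. In the astrocyte-labelled comparison every alternative that kept the rows apart left the 8 lower calls lower and past the threshold. There Tap2 ranged from -0.034 to 0.29 with 1 library left out, Psmb9 was called lower with genes kept at 1 count in any library, with the replicate block and without BAL101553 1 (lowest adjusted p 0.0288), and was 0.069 against control in place of BAL101553, and the Psmb9 to Psmb6 ratio, 0.09, was -0.13 on raw counts and ranged from -0.068 to 0.26. Total library sizes moved the median of all genes in that comparison from 0.18 to 0.39. The causes of these changes were not tested.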
